A study of Homo sapiens with 8 samples.

Results

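The EGFR family couples secreted growth factors to cell growth. Its ligands are made as membrane-anchored precursors, are cut loose by metalloproteases and bind receptor tyrosine kinases, which then pair and signal through the RAS-ERK and PI3K-AKT pathways. In the colon the family drives growth of the epithelium, and AREG and EREG are the ligands most often followed in colorectal tumors. The 10 genes described here were chosen by name, with earlier results of these data known. The list holds the receptors EGFR, ERBB2 and ERBB3, the ligands AREG, EREG, TGFA, HBEGF and BTC, and the inhibitors ERRFI1 and LRIG1. They are 10 of the 58302 genes in the count table, and all 10 passed the filter on low counts and were among the 14133 genes tested.

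RNA sequencing compared cells of the human colorectal cancer line DLD1 that stably carried wild-type TRMT6/61A from a lentivirus (OE-WT) with DLD1 cells that carried the empty vector (CTRL). TRMT6 and TRMT61A form the enzyme that writes the 1-methyladenosine mark on tRNA. Both groups are transduced cells, with 2 libraries per group and 2 lanes merged in each, and according to the labels the cells of all libraries were washed with cycloheximide before lysis. The design text speaks of duplicate cultures and the paper's methods of biological replicates, in a number that differs from the labels, so the p-values measure only the spread between these libraries, which may in part be technical. Values are in CPM, read counts scaled to a common library size by the TMM method, and a call means an adjusted p below 0.05 from edgeR's quasi-likelihood test over all genes tested.

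The library labels were read first. The libraries held 10327498 to 12379671 counts on genes. TRMT6 had 2092 and 1841 counts in OE-WT against 677 and 683 in CTRL libraries, and TRMT61A had 1365 and 1327 against 758 and 700. Their log2 fold changes were 1.86 (standard error, SE, 0.08, with an adjusted p of 8.5e-13) and 1.21 (SE 0.07, adjusted p = 1.9e-10). All 11 epithelial markers listed had counts, but CDX1 had only 1, in OE-WT replicate 2, and was not tested. The sum was 11799 to 12112 CPM in CTRL and 12683 to 13091 CPM in OE-WT libraries. KRT8 and KRT18 made up most of this sum. KRT8 had means of 5048 CPM in CTRL and 6012 CPM in OE-WT cells, and KRT18 of 3142 and 3855 CPM. Of the 10 tested, these 2 were called higher and 5 others lower, against 9.44% and 11.6% of all genes tested. The largest of these changes was that of KRT20, a marker of differentiated colon epithelium, with 26.2 ± 1.27 CPM in CTRL and 9.14 ± 1.11 CPM in OE-WT cells (SD, n = 2 each), and its part in the results was not tested. The summed CPM of 8 fibroblast markers was 2.46 to 3.32 in OE-WT and 2.27 to 2.41 in CTRL libraries, that of 7 immune markers was 2.12 to 2.46 and 2.03 to 3.19, and that of 4 endothelial markers was 0.590 to 0.806 and 1.14 to 2.33. COL1A2, COL3A1, DCN, PDGFRA, CD3E, CDH5 and KDR were at 0 in all 4 libraries.

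AREG and EREG, the most abundant ligand mRNAs, are neighbors on the plus strand of chromosome 4, where EREG (ENSG00000124882, 74365145 to 74388749) ends 56.4 kb before AREG (ENSG00000109321, 74445136 to 74455005) begins. The 250 bases before each start are shown from RefSeq (GRCh38.p14, plus strand, 5′ to 3′). A link between these letters and the changes in level was not tested. Capitals mark TATAAA, the TATA box, and TGACGTCA, the cAMP response element. The AREG window is chr4:74444886-74445135 and the EREG window is chr4:74364895-74365144.
AREG: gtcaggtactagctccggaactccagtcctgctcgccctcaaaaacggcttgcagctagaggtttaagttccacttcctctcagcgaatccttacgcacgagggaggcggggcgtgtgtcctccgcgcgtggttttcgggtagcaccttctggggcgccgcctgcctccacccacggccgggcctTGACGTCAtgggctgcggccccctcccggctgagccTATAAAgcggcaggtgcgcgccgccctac
EREG: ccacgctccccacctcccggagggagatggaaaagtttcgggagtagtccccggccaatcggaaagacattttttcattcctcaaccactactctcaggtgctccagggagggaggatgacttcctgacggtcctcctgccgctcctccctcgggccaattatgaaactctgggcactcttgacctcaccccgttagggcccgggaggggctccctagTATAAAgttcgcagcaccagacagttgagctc
The TATA box begins 29 bases before the AREG start and 32 bases before the EREG start. Over 35116 windows of this length and both strands, 10.7% held TATAAA. TGACGTCA begins 65 bases before the AREG start, was found in 1.65% of windows and is not in the EREG window. Of the 9 members with an entry in the RefSeq table, 3 held TATAAA in any window, 1 held TGACGTCA, 3 held the AP-1 site TGANTCA (6.57% of windows), 6 held the GC box GGGCGG (42.6%) and 4 held CCAAT (32% of windows). Some members have several windows, and for them any window counts, whereas the percentages are per window. EGFR held TATAAA and TGANTCA only in its window at chr7:55109589-55109838, which lies inside the gene and has 116 bases within EGFR exons. LRIG1 held TGANTCA only in its window at chr3:66405768-66406017, which lies inside the gene and wholly within LRIG1 exons. The ERBB2 window, which held TGANTCA and CCAAT, lies wholly within exons of ERBB2 or PGAP3. The motifs do not overlap one another in the AREG and EREG windows, and a match is a description of letters, not a binding site.

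Among the members, 5 were called lower in OE-WT cells and 0 higher. The background is 11.6% of all genes tested called lower and 9.44% called higher, 21.1% in either direction. The 5 were the 3 receptors and the ligands AREG and EREG. As the members were chosen with earlier results of these data known, this count describes them and does not test for an excess. The median log2 fold change was -0.23 over the 10 members and 0.01 over all genes tested. The members' median was -0.14 without OE-WT replicate 1, -0.16 without CTRL replicate 1 and -0.32 with library size only. The CPM of the groups did not overlap for 8 members, 7 of them lower in OE-WT, against a background of 30.2% of genes lower without overlap and 29.9% higher. At the study's thresholds, an unadjusted p below 0.05 with an absolute log2 fold change above 1, 0 members passed, where 2.25% of all genes passed as lower, 0.899% as higher and 3.15% in either direction. In these bulk samples, fewer cells that express a gene and less RNA per cell cannot be told apart.

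**Figure D1:**
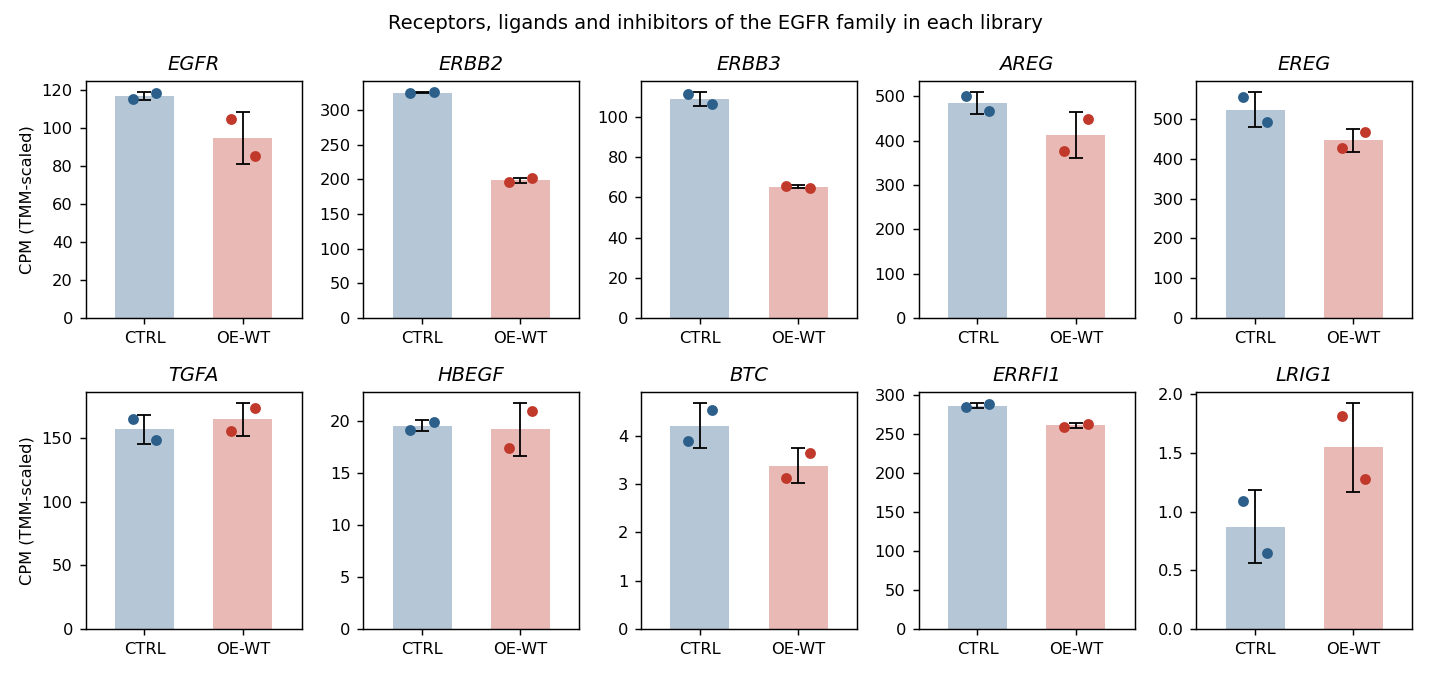
Level of each member in each library, in CPM, with CTRL and OE-WT libraries side by side; points are libraries, bars their mean and whiskers the SD (n = 2 each). ERBB2 and ERBB3 show the widest separation of the groups (ERBB2 196 and 201 CPM against 325 and 325), and the groups overlap for TGFA and HBEGF.

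ERBB2 and ERBB3, which signal as a pair, fell the most of the members. ERBB2 (ENSG00000141736, chromosome 17, 39687914 to 39730426), the receptor with no known ligand of its own and the preferred partner of the others, had 196 and 201 CPM in the OE-WT libraries against 325 and 325 CPM in the CTRL libraries. Both OE-WT libraries lay far below both CTRL libraries, and the libraries of a group differed little. The means were 199 ± 4.12 and 325 ± 0.355 CPM (SD, n = 2 each), a log2 fold change of -0.71 (SE 0.06, adjusted p = 9.7e-08), which is a change of -38.9% with a 95% interval from -44.3% to -33.0%.

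ERBB3 (ENSG00000065361, chromosome 12, 56076799 to 56103505), a receptor for neuregulins with little kinase activity that recruits PI3K, had 65.7 and 64.7 CPM in OE-WT against 111 and 106 CPM in CTRL libraries. Again the groups stood well apart. The log2 fold change was -0.74 (SE 0.07, adjusted p = 2.1e-07), a change of -40.1% with a 95% interval from -45.8% to -33.6%. Both calls held in all 11 alternatives and refits, with log2 fold changes from -0.80 to -0.68 for ERBB2 and from -0.83 to -0.71 for ERBB3.

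EGFR (ENSG00000146648, chromosome 7, 55019017 to 55211628), the receptor of all 5 ligands described here, had a smaller change. It had 104 and 85.0 CPM in OE-WT against 115 and 118 CPM in CTRL libraries, so the first OE-WT library was close to the controls and the second was not. The log2 fold change was -0.30 (SE 0.08, adjusted p = 0.010), a change of -18.8% with a 95% interval from -27.7% to -8.78%. Without OE-WT replicate 2 it was -0.17 (adjusted p = 0.177), and with DESeq2's Wald test the adjusted p was 0.056.

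The summed CPM of the 3 receptors was 366 and 351 in OE-WT against 551 and 550 in CTRL libraries. Per kilobase of exon, the level of ERBB2 was the highest of the 3 in both groups, at 19.2 CPM per kb in OE-WT and 31.5 in CTRL cells. EGFR was at 5.94 and 7.31 CPM per kb and ERBB3 at 5.57 and 9.28. By this measure ERBB3 was above EGFR in CTRL cells. The lengths are those of the merged exons of all annotated transcripts, 15941 bases for EGFR, 10321 for ERBB2 and 11711 for ERBB3. The order of genes and their shares per kb depend on these lengths, as the transcripts in use were not determined. By the same lengths, the order in OE-WT cells turned between the libraries. ERBB3 was below EGFR in the first (18.0% and 21.0% of the receptors' summed level per kb) and above it in the second (18.2% and 17.6%). In raw counts ERBB3 was below EGFR in each library. As a share of the receptors' summed level per kb, EGFR made up a mean of 19.3% in OE-WT and 15.2% in CTRL cells, and both OE-WT libraries lay above both CTRL libraries.

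Ratios of raw counts within a library do not depend on the scaling between libraries. The ratio of ERBB2 to ERBB3 was 2.98 and 3.12 in OE-WT against 2.92 and 3.06 in CTRL libraries, and the groups overlapped. ERBB2 to EGFR was 1.87 and 2.37 in OE-WT against 2.82 and 2.76 in CTRL libraries. ERBB3 to EGFR was 0.629 and 0.761 against 0.965 and 0.902. In both ratios to EGFR the OE-WT libraries lay below the CTRL libraries, and they differed from each other more than the CTRL libraries did. The ratios were not tested, because with 2 libraries on each side the smallest p of a two-sided exact permutation is 0.333.

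**Figure D2:**
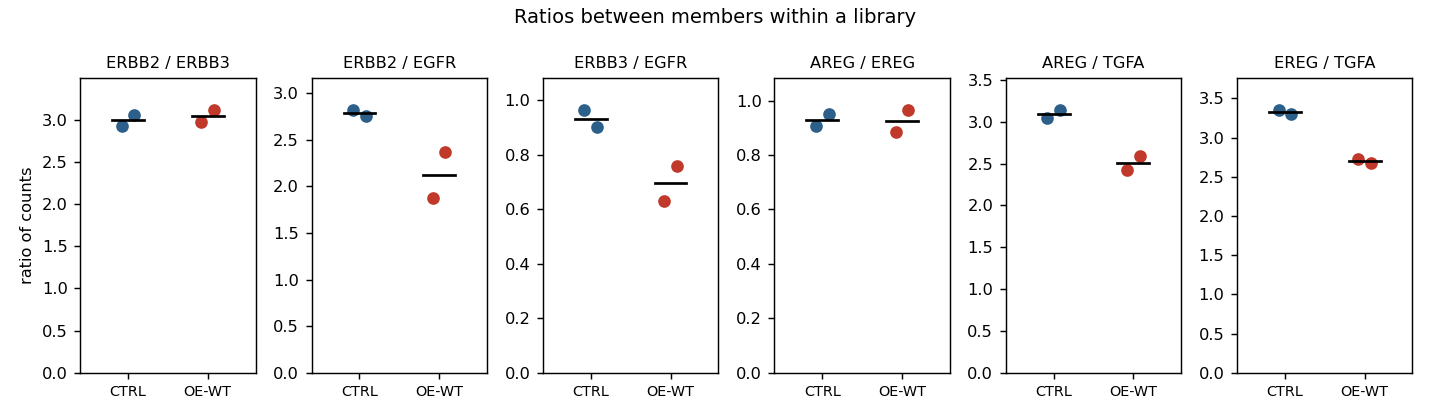
Ratios of raw counts between members within each library, CTRL and OE-WT side by side; each point is a library, the lines are means and the axes start at 0. ERBB2 to ERBB3 and AREG to EREG overlap between the groups, while the ratios of ERBB2 and ERBB3 to EGFR and of AREG and EREG to TGFA are lower in both OE-WT libraries.

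Of the ligands, AREG and EREG were lower by a small amount and the other 3 were not called. AREG, amphiregulin, had 376 and 450 CPM in OE-WT against 502 and 467 CPM in CTRL libraries, so the higher OE-WT library came close to the lower CTRL library. Its log2 fold change was -0.23 (SE 0.08, adjusted p = 0.035), a change of -14.7% with a 95% interval from -23.6% to -4.83%. EREG, epiregulin, had 426 and 466 CPM in OE-WT against 553 and 492 CPM in CTRL libraries, again with a narrow gap. Its log2 fold change was also -0.23 (SE 0.07, adjusted p = 0.025), a change of -14.7% with a 95% interval from -23.0% to -5.46%.

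These calls rest on few libraries. With OE-WT replicate 1 left out, AREG was at a log2 fold change of -0.10 (adjusted p = 0.494) and EREG at -0.16 (adjusted p = 0.226). Without CTRL replicate 1 they were -0.18 (adjusted p = 0.158) and -0.14 (adjusted p = 0.292). Without OE-WT replicate 2, AREG was at -0.37. With DESeq2's Wald test neither was called.

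TGFA (ENSG00000163235, chromosome 2, 70447284 to 70554193), transforming growth factor alpha, had 156 and 174 CPM in OE-WT against 165 and 149 CPM in CTRL libraries. The groups overlapped, and the log2 fold change was 0.07 (95% interval -0.08 to 0.22, adjusted p = 0.535). HBEGF (ENSG00000113070, chromosome 5, 140332843 to 140346603), which also binds heparin, had 17.4 and 21.0 CPM in OE-WT against 19.2 and 20.0 CPM in CTRL libraries. The groups overlapped as well, and the log2 fold change was -0.03 (95% interval -0.28 to 0.23, adjusted p = 0.909). For BTC (ENSG00000174808, chromosome 4, 74744759 to 74794523), betacellulin, the counts were 31 and 37 in OE-WT against 50 and 56 in CTRL libraries, which is 3.12, 3.64, 3.89 and 4.55 CPM. Its groups did not overlap, and at this depth its log2 fold change of -0.32 had a 95% interval from -0.81 to 0.18 (adjusted p = 0.381). Without OE-WT replicate 1 it was -0.21 and without CTRL replicate 2 it was -0.20.

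Per kilobase of exon, AREG had the highest level of the ligands, at 252 CPM per kb in OE-WT and 295 in CTRL cells. EREG followed at 78.0 and 91.4 CPM per kb, TGFA at 33.5 and 31.9, HBEGF at 6.43 and 6.55 and BTC at 1.27 and 1.59. The order was the same in both groups. It depends on the merged exon lengths, 1642 bases for AREG and 5713 for EREG, and in CPM EREG was above AREG in each library. AREG made up 67.0% and 68.6% of the summed ligand level per kb in OE-WT against 68.8% and 69.5% in CTRL libraries. TGFA made up 9.24% and 8.85% in OE-WT against 7.56% and 7.39% in CTRL libraries, a larger share in both OE-WT libraries.

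The count ratio of AREG to EREG was 0.885 and 0.965 in OE-WT against 0.907 and 0.950 in CTRL libraries, with the OE-WT libraries on both sides of the CTRL libraries. The ratio of EREG to TGFA was 2.73 and 2.68 in OE-WT against 3.35 and 3.31 in CTRL libraries. That of AREG to TGFA was 2.42 and 2.59 against 3.04 and 3.14. The groups stood apart in both ratios, and these ratios were not tested either.

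The inhibitors were not called. ERRFI1 (ENSG00000116285, chromosome 1, 8004404 to 8026309), also called MIG6, binds the kinase domain of the receptors and is induced by their signal. It had 259 and 263 CPM in OE-WT against 284 and 289 CPM in CTRL libraries. The groups did not overlap, and the log2 fold change of -0.13 (SE 0.06) had an unadjusted p of 0.0448 and an adjusted p of 0.137. Scaled by library size only it was -0.23 (adjusted p = 0.043). Per kb of merged exons its level, 62.5 CPM in OE-WT and 68.6 in CTRL cells, was above that of each receptor. In CPM, ERRFI1 was above ERBB2 in OE-WT libraries and below it in CTRL libraries.

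LRIG1 (ENSG00000144749, chromosome 3, 66378797 to 66501263), a membrane protein that promotes receptor degradation and marks slowly cycling stem cells of the gut, was near the lower limit of detection. It had 18 and 13 counts in OE-WT against 14 and 8 in CTRL libraries, which is 1.81, 1.28, 1.09 and 0.649 CPM, where 3 counts correspond to 0.233 to 0.302 CPM. The log2 fold change was 0.81 with a 95% interval from -0.06 to 1.68 (adjusted p = 0.177). It was 1.23 without CTRL replicate 1, 0.50 without CTRL replicate 2 and 0.55 without OE-WT replicate 1. The second CTRL library had fewer counts than the filter's minimum of 10, so LRIG1 passed through the others. The filter asks for the minimum, scaled to library size, in as many libraries as a group holds. Both OE-WT libraries, where LRIG1 was higher, met it. The interval is wide, and 2669 exon bases of LRIG1 overlap SLC25A26 on the other strand, which had 139 and 154 counts in OE-WT against 195 and 192 in CTRL libraries.

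**Figure D3:**
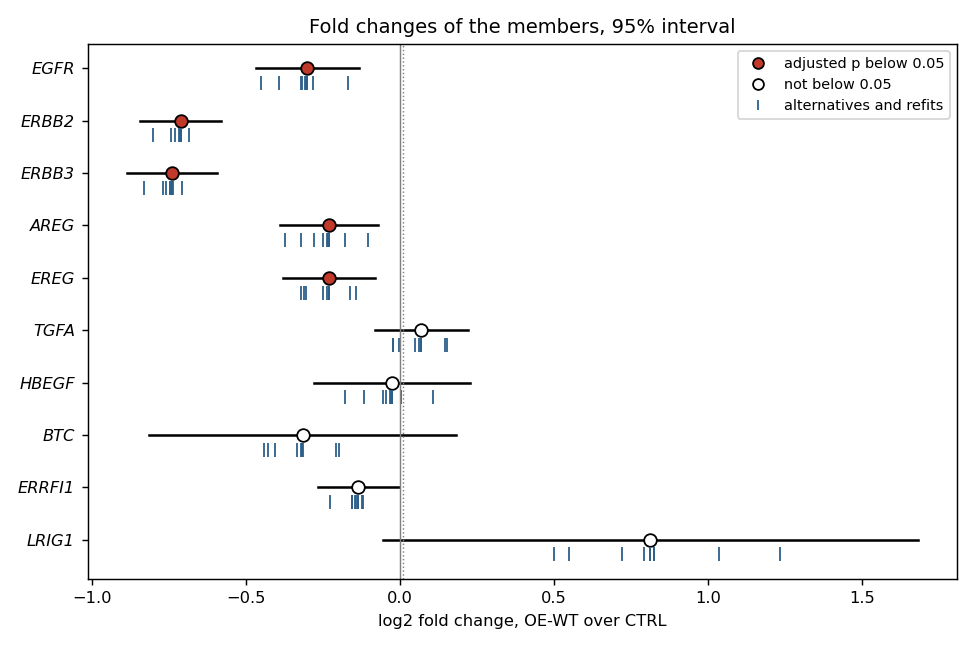
Log2 fold change, OE-WT over CTRL, of each member with its 95% interval; filled points have an adjusted p below 0.05, ticks are the alternatives and the refits without 1 library, and the dotted line is the median of all genes tested (0.01). ERBB2 and ERBB3 lie at -0.71 and -0.74 with all ticks nearby, while the ticks of TGFA and HBEGF fall on both sides of 0.

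The other receptor and ligand genes of the family were at or near 0. ERBB4, EPGN and NRG3 had 0 counts in all 4 libraries. EGF had 2 and 0 counts in OE-WT against 2 and 0 in CTRL libraries, and NRG1 had 2 and 0 against 5 and 4. NRG2 had 1 and 0 against 3 and 1, and NRG4 had 0 and 0 against 1 and 1. None of the 7 passed the filter, and a neuregulin, the kind of ligand that ERBB3 binds, had at most 5 counts in a library. Where nothing was counted, up to 3 counts remain possible, for counting error only.

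Beyond these, 66 of 75 listed genes of the pathway were tested, the 7 above being among the 9 that were not. Of the 66, 11 were called higher and 10 lower, with a median log2 fold change of 0.04, against 9.44% and 11.6% of all genes. This median was -0.05 with library size only, where that of all genes was -0.08, and it ran from 0.0095 without OE-WT replicate 1 to 0.07 without CTRL replicate 2. The count of lower calls was 18 with library size only and 5 with DESeq2, and that of higher calls was 4 and 3. The calls went in both directions in 4 of the 7 groups of the pathway described next.

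The genes of ligand release included 2 called lower out of 4, where 11.6% of all genes tested were called lower. Among genes whose protein has a hydrophobic segment near its start, described below, 32.8% were called lower. Whether these 4 genes are of that class is not given here. RHBDF1 and RHBDF2 encode iRhoms, which carry the protease ADAM17 to the cell surface. RHBDF1 had 29.5 ± 3.14 CPM in OE-WT and 45.0 ± 0.0805 CPM in CTRL cells (SD, n = 2 each), a log2 fold change of -0.61 (adjusted p = 7.1e-05). RHBDF2 had 40.2 ± 3.73 and 58.8 ± 2.41 CPM, a log2 fold change of -0.55 (adjusted p = 8.3e-05). The proteases ADAM17, at -0.19 (adjusted p = 0.136), and ADAM10, at -0.22 (adjusted p = 0.104), were not called.

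Of 13 adaptors and docking proteins, 1 was higher and 2 were lower. PTPN11, the phosphatase SHP2 that relays the signal to RAS, had a log2 fold change of 0.55 (adjusted p = 0.0015). The docking proteins GAB2, at -0.38 (adjusted p = 0.022), and IRS1, at -0.34 (adjusted p = 0.0019), were lower. Of 10 genes of the RAS-ERK cascade, 2 were called higher, among them NRAS at 0.28 (adjusted p = 0.021), and 0 lower. Of 6 PI3K-AKT genes tested, 0 were called.

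The 6 JAK, STAT and SRC genes split, with 2 called higher and 2 lower. STAT3 rose, with a log2 fold change of 0.31 (adjusted p = 0.0031). STAT5A fell by 0.65 on the log2 scale (adjusted p = 0.044) and STAT5B by 0.42 (adjusted p = 0.021). These are signal-dependent transcription factors.

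Of 19 genes of receptor traffic and removal, 2 were higher and 2 lower. USP8, a deubiquitinase that acts on receptors in endosomes, had 5.07 ± 0.474 CPM in OE-WT and 2.74 ± 0.309 CPM in CTRL cells (SD, n = 2 each), a log2 fold change of 0.89 (adjusted p = 0.011). The phosphatase gene PTPN1 rose, at 0.28 (adjusted p = 0.016), and the receptor-type phosphatase gene PTPRJ fell, at -0.44 (adjusted p = 0.0030). LRIG2, a relative of LRIG1, had a log2 fold change of -0.51 (adjusted p = 0.042).

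The feedback genes that ERK signaling induces moved in both directions, with 4 of 8 called higher and 2 lower. DUSP6, a phosphatase of ERK, had 250 ± 9.70 CPM in OE-WT and 193 ± 8.11 CPM in CTRL cells (SD, n = 2 each), a log2 fold change of 0.37 (adjusted p = 0.00032). SPRY4 and SPRED1, inhibitors of the step to RAS and RAF, were at 0.44 (adjusted p = 0.013) and 0.42 (adjusted p = 0.043). DUSP4, a nuclear phosphatase of the same family as DUSP6, was at -0.63 (adjusted p = 0.0044), and SPRY2, of the same family as SPRY4, was at -0.41 (adjusted p = 0.014). DUSP6 and DUSP4, and likewise SPRY4 and SPRY2, went in opposite directions.

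**Figure D4:**
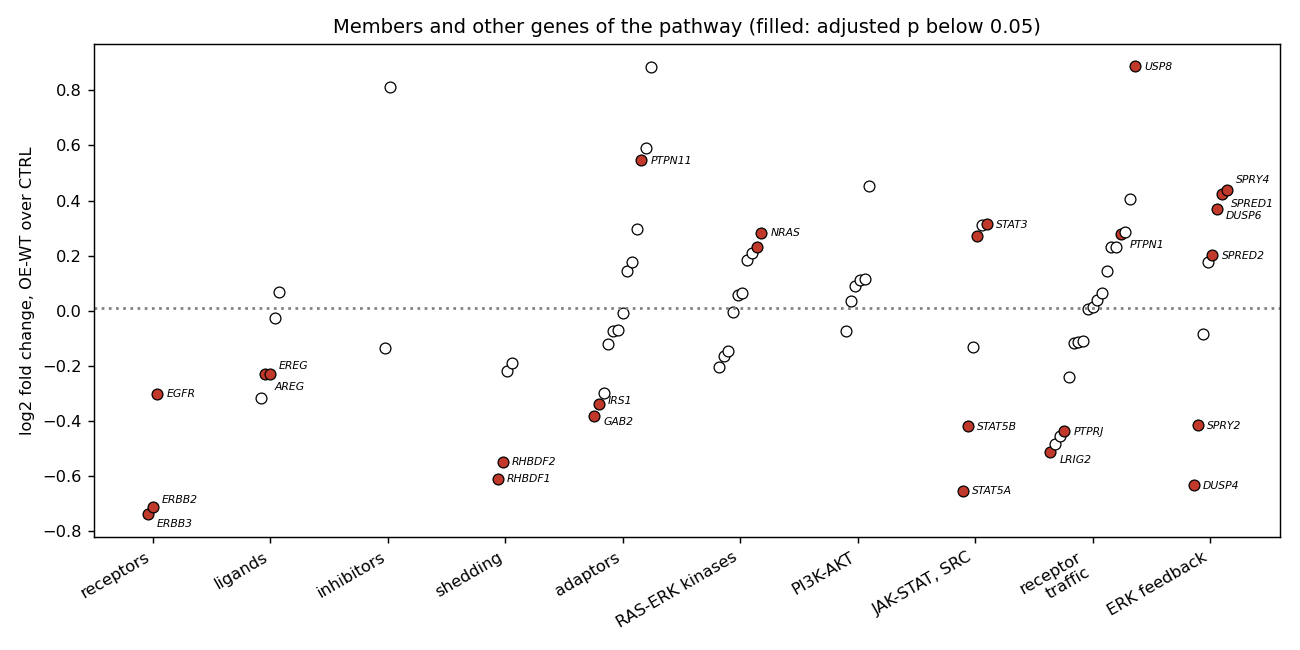
Log2 fold changes, OE-WT over CTRL, of the members and of the other 66 pathway genes tested, by role; filled points have an adjusted p below 0.05 and the dotted line is the median of all genes tested (0.01). The 3 receptors and the release genes lie below the line, and the feedback genes lie on both sides of it.

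Besides AREG and EREG themselves, no gene tested around the ligand genes on chromosome 4 was called lower. MTHFD2L, upstream of EREG, had a log2 fold change of 0.74 (adjusted p = 0.00010), and ENSG00000269559, a noncoding gene inside its bounds on the other strand, one of 0.62 (adjusted p = 0.047). ENSG00000249942, between AREG and BTC, was at 1.03 with means of 1.15 CPM in OE-WT and 0.558 CPM in CTRL cells (adjusted p = 0.138). PARM1, beyond BTC, was at 0.07 (adjusted p = 0.561). BTC, on the minus strand, lies 289.8 kb beyond the end of AREG.

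**Figure D5:**
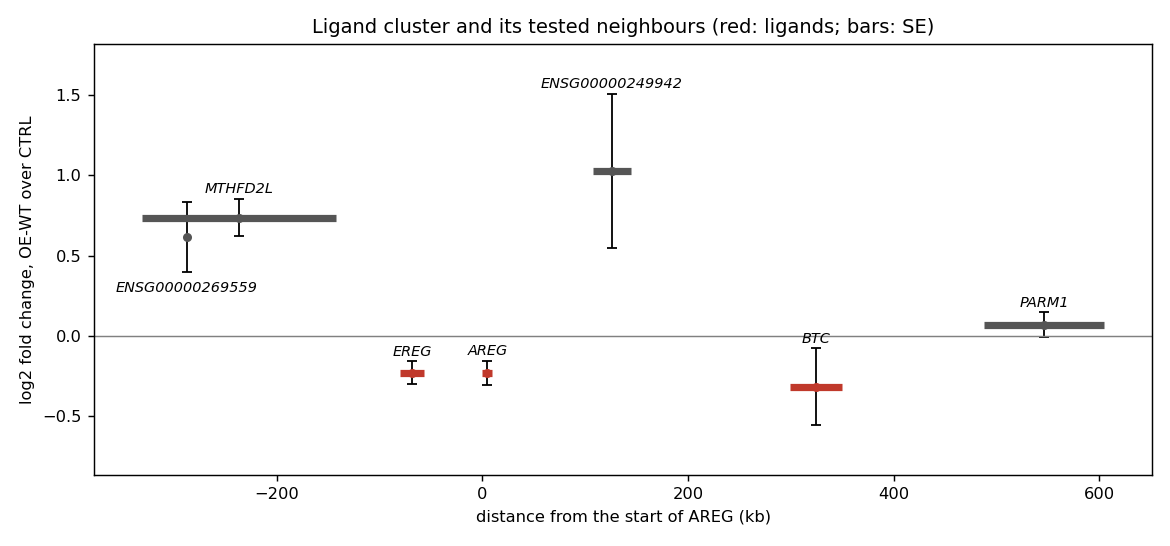
Log2 fold change, OE-WT over CTRL, of the genes around AREG by distance from its start in kb; horizontal bars span each gene, points are at its middle and vertical bars are standard errors. EREG and AREG lie together at -0.23 between MTHFD2L at 0.74 and ENSG00000249942 at 1.03.

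Within 250 kb of ERBB2, 3 of 9 genes tested were lower and 3 higher, where 11.6% of all genes tested were called lower and 9.44% higher. STARD3, on one side of ERBB2 and often amplified with it, was at -0.46 (adjusted p = 0.00027), and GRB7, on the other side, was at 0.19 (adjusted p = 0.314). MIEN1 and PGAP3 overlap ERBB2 exons on the other strand by 571 and 144 bases. PGAP3 was lower, at -0.32 (adjusted p = 0.020), and MIEN1, at -0.23 (adjusted p = 0.059), was not called. Around ERBB3, 3 of 34 genes tested were lower and 3 higher, and PA2G4, the next gene downstream, which encodes the ERBB3-binding protein EBP1, rose by a log2 fold change of 0.52 (adjusted p = 6.8e-06). ENSG00000257553, a noncoding gene over PA2G4 on the other strand, was at 0.67 (adjusted p = 5.7e-06).

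EGFR-AS1, which shares 186 exon bases with EGFR on the other strand, had 26 and 32 counts in OE-WT against 66 and 58 in CTRL libraries, a log2 fold change of -0.77 (adjusted p = 0.025). It was 1 of 3 genes tested within 250 kb of EGFR, of which 2 were lower and 1 higher. The others were VOPP1, at -0.26 (adjusted p = 0.039), and LANCL2, at 0.49 (adjusted p = 0.0089). The libraries were made with a stranded kit, but the sources do not state the strand setting of the counting. Reads of EGFR and EGFR-AS1, of ERBB2, MIEN1 and PGAP3, and of LRIG1 and SLC25A26, and of PA2G4 and ENSG00000257553, may therefore not be separate where the exons overlap.

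The receptors and ligands enter the secretory pathway. As a stand-in for genes of that kind, those whose protein has a hydrophobic segment near its start were taken. These were lower as a class, and the measure misses some genes of the pathway, ERBB2 among them. Of the 1926 genes tested whose protein has a hydrophobic segment near its start, 32.8% were called lower and 5.35% higher, with a median log2 fold change of -0.20. Of the 9596 without one, 9.14% were lower and 11.2% higher, with a median of 0.04. By this measure 8 of the 10 members have such a segment, the others being ERBB2 and ERRFI1. ERBB2 is a membrane protein whose first residues did not reach the hydropathy limit, and ERRFI1 is a cytosolic protein. Of the 8, 4 were called lower, which is to be read against the 32.8% of their class rather than the 11.6% of all genes. EGFR, AREG and EREG, at -0.30, -0.23 and -0.23, lay close to the class median, and ERBB3, at -0.74, lay well below it. According to the labels, RNA was taken from the supernatant of a centrifuged lysate, and the part of this step in the result was not tested.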

How the data were processed

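RNA sequencing of 2 OE-WT and 2 CTRL libraries of DLD1 cells was analysed. The authors deposited raw counts per gene, 1 column per library with its lanes merged and 0 other columns per sample. The paper's methods give Cutadapt, HISAT2, HTSeq, GRCh38, removal of ribosomal RNA and more biological replicates than the labels list. The submitters' processing notes name HISAT2 2.2.1, featureCounts 2.0.0 and DESeq2 1.34.0, and the labels describe poly(A) selection and RNA from a cleared lysate of cells washed with cycloheximide. The series' design text names TRMT6 and TRMT61A cells apart, and the labels name them jointly. The annotation release and strand setting are not given in the sources used here.

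Totals were 10327498 to 12379671 counts. A count of 0 allows up to 3 counts (0.233 to 0.302 CPM), which covers counting error only. Genes passing edgeR's filter by group (minimum count 10) were TMM-normalized and tested in edgeR 4.0.16 (R 4.3.3) by the quasi-likelihood test, with no replicate block, and p-values were adjusted over 14133 genes by Benjamini-Hochberg. Pearson's r of log2 CPM across genes was 0.993 within OE-WT, 0.995 within CTRL and 0.982 to 0.987 between groups. Standard errors are the log2 fold change over the square root of F, and 95% intervals use the test's degrees of freedom. The test was checked on simulated counts, where it recovered 69.5% of 200 genes made to change. A gene not called may therefore still differ between the groups. Symbols, coordinates and exon lengths came from GENCODE release 44, which matched 57532 of 58302 identifiers. Exon length is that of the merged exons of all annotated transcripts of a gene. A protein has a hydrophobic segment where 11 residues in a row among its first 40 average 2.0 or more on the Kyte-Doolittle scale. Figures were drawn in matplotlib 3.10.9 (Python 3.11.15).

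The members, pathway lists, motifs and markers were chosen with earlier results of these data known. Genes named are the members, the targets, the genes around the members and, per pathway list, up to 3 called genes with the largest change in each direction. The family members near 0, the ADAM genes, KRT8, KRT18, KRT20, CDX1 and the markers at 0 were named after their values were seen. So were, of the genes around the members, those given with values. Alternatives were DESeq2 1.42.0, library size only, RLE size factors, a filter of 1 count or of 10 counts in every library, a replicate block and each library left out. Some genes of the pathway lists are counted but not reported by name here. Other assays of the study were not analysed here.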

Additional observations from a re-analysis of the deposited data

How the results depend on the processing

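The calls of ERBB2 and ERBB3 kept their direction and their side of the threshold in all 11 alternatives and refits, and 0 members passed the study's thresholds in each of them. The number of members called lower, 5, was 2 with DESeq2 (EGFR, AREG and EREG lost), 4 with no filter beyond 1 count (AREG lost) and 3 to 5 with each library left out in turn, where the lone library of a group is assumed to vary like the other group. For DESeq2, the cause was not tested. ERRFI1 was called with library size only and with the crossed block described last. TGFA turned direction with library size only (-0.02); with a library left out it ranged from -0.021 to 0.15 and HBEGF from -0.18 to 0.11, none of them called. LRIG1 could not be tested with at least 10 counts in every library, and DESeq2 gave it no adjusted p.

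The pathway genes called lower, 10, numbered 18 with library size only, 5 with DESeq2 and 6 to 9 with a library left out; those called higher, 11, numbered 4, 3 and 4 to 11, and 5 with no filter beyond 1 count. Over all genes, the 1642 lower calls became 855 with DESeq2. The 1334 higher calls became 733 with library size only, 522 with DESeq2, 844 with no filter beyond 1 count and 764 to 1231 with a library left out. Library size only moved the median of all genes from 0.01 to -0.08, and 23.0% of calls were then higher, against 44.8%.

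The numbers showed no pairing of the libraries: libraries with the same number deviated from their group means with a correlation of -0.104 across genes. With 2 libraries per group, this value cannot decide whether libraries share a batch. The replicate block gave 2658 calls over all genes against 2976, and 4 members called lower, with EREG at an adjusted p of 0.055. A block with crossed numbers, chosen after seeing the data, gave 4274 calls, 2047 of them higher, and 18 pathway genes called higher.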
